A study of Mus musculus with 7 samples.

Results

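Small nucleolar RNA (snoRNA) host genes were examined in the livers of male mice fed a high-fat diet (HFD). Of the 51426 genes in the count tables, 8 noncoding host genes were chosen by symbol, namely Gas5, Snhg1, Snhg3, Snhg5, Snhg6, Snhg8, Snhg12 and Snhg20, and all 8 were found and had enough counts to be tested. The study asked how loss of TET1, an enzyme that oxidizes methylated cytosine in DNA, affects fatty liver disease. RNA-seq was made from hepatic tissue of 3 wild-type (WT) mice and 4 TET1 whole-body knockout (TET1 KO) mice. Both genotypes were given as strain C57BL/6J and had the same diet for 16 weeks, started at 8 weeks of age, with littermates as controls per the study's description of the mice. The mice of the RNA-seq were TET1-/- and TET1 wt/wt. The TET1 KO line was B6;129S4-Tet1tm1.1Jae/J, not the floxed line crossed to Actb Cre that was also used for whole-body deletion. The paper states a C57BL/6J background, or backcrossing to it, for the floxed and Cre lines but not for this line. Any strain difference between the genotypes cannot be told apart from loss of TET1. The knockout is not limited to one cell type, so a difference between these livers cannot be assigned to hepatocytes, and no liver on normal chow was in the series.

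A snoRNA host gene carries snoRNAs inside its introns. After splicing, the introns are trimmed to mature snoRNAs, which guide the methylation of ribose (box C/D class, symbols starting with Snord) or the formation of pseudouridine (box H/ACA class, symbols starting with Snora) in ribosomal RNA, while the joined exons are in most cases exported and broken down by nonsense-mediated decay. Many hosts have an oligopyrimidine tract at their transcription start, as ribosomal protein genes do. Gas5, growth arrest specific 5, is the best known of them, since its spliced RNA builds up when cells stop growing and can bind the glucocorticoid receptor.

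Libraries held between 15005277 and 22746138 counts. Tet1 itself had 1 to 4 counts in the WT libraries and 1 to 4 in the TET1 KO libraries, so at this depth the genotype labels could not be checked on the targeted gene. The first principal component of log2 expression held 48.7% of the variance, and WT 2 (-56.9) and TET1 KO 1 (57.1) lay at its opposite ends. Marker sums are given in CPM as counts relative to library size, without TMM scaling. Summed hepatocyte markers stood at 69284 to 91809 CPM in WT and 78046 to 86568 CPM in TET1 KO livers. The 5 cholangiocyte markers summed to 30.0 to 39.3 CPM in WT and 45.2 to 64.3 CPM in TET1 KO livers. The 6 endothelial markers summed to 146 to 153 CPM in WT and 115 to 135 CPM in TET1 KO livers. The 8 stellate cell and fibroblast markers summed to 235 to 418 CPM in WT and 222 to 287 CPM in TET1 KO livers. All 5 tested B and plasma cell markers had a positive log2 fold change (median 0.78), and all 4 erythroid markers a negative one (median -0.61). The sums of both lists overlapped between the genotypes. No marker of these lists was called by edgeR. DESeq2 called 3 cholangiocyte markers higher, 1 hepatocyte marker higher, 1 endothelial marker lower and 3 stellate cell and fibroblast markers lower, the collagen genes Col1a1, Col1a2 and Col3a1 (named after their values were seen), and the part of these shifts in the results given here was not tested. In bulk tissue, fewer cells of a type and less RNA per cell cannot be told apart.

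In the RefSeq annotation of GRCm38.p6, whose assembly is the build of the deposited counts, the 8 hosts were short long noncoding RNA genes of 785 (Snhg8) to 3939 (Gas5) bases, and 26 snoRNAs lay inside 7 of them. Gas5 (chr1:161034601-161038539) and Snhg1 (chr19:8723487-8726326) each held 8. Snhg5 (chr9:88521052-88522897) held 2, and Snhg6 (chr1:9942025-9944118) held Snord87 alone. Snhg3 (chr4:132351933-132353686) held the box H/ACA pair Snora73a and Snora73b, which belong to the U17 family needed to process the RNA of the small ribosomal subunit. Snhg8 (chr3:123507552-123508336) held Snora24. Snhg12 (chr4:132308678-132311024) was mixed, with Snora16a, Snora44, Snora61 and Snord99. Snhg20 (chr11:117076783-117078955) held no annotated snoRNA and 1 microRNA, Mir6516.

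The sequence around the annotated start of each gene is shown because start sequence is what these hosts are said to share with ribosomal protein genes. RefSeq promoter windows of GRCm38.p6 were matched by symbol for 7 of the 8 hosts, and Snhg6 had no entry. The windows lay at chr1:161034551-161034650 and chr1:161035116-161035215 (Gas5, plus strand, which has both an upstream and a downstream start), chr19:8723437-8723536 (Snhg1, plus strand), chr4:132353637-132353736 (Snhg3, minus strand), chr9:88522848-88522947 (Snhg5, minus strand), chr3:123508287-123508386 (Snhg8, minus strand), chr4:132308628-132308727 (Snhg12, plus strand) and chr11:117076733-117076832 (Snhg20, plus strand). Each line reads 5′ to 3′ on the strand of the gene and holds 50 bases before the start and 50 from the start on. Capitals mark the letters TATA where their first base lies 45 to 15 bases before the start, and the longest run of C and T within 20 bases of the start.
Gas5 upstream start: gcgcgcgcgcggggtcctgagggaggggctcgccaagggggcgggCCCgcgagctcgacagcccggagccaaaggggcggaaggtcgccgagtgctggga
Gas5 downstream start: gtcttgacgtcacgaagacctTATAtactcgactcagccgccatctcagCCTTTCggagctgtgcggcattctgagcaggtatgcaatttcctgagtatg
Snhg1: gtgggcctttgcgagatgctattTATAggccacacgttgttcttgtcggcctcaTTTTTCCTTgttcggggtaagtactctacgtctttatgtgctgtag
Snhg3: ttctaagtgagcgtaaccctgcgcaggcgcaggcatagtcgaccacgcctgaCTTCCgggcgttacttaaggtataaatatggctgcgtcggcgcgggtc
Snhg5: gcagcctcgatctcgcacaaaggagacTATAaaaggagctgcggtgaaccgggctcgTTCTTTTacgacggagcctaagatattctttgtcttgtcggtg
Snhg8: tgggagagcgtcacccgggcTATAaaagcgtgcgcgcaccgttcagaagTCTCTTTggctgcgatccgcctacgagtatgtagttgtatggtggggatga
Snhg12: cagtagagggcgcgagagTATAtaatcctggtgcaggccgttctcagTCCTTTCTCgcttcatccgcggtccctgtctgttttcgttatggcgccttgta
Snhg20: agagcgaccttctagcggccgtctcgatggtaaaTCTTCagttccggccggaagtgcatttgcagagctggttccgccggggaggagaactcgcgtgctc

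The TATA letters, which read the same on both strands, stood 45 to 15 bases before the start in 5 of the 8 windows, those of Snhg1, Snhg5, Snhg8, Snhg12 and the downstream start of Gas5. They began 23 (Snhg5) to 32 (Snhg12) bases before it. The same letters at that distance were found in 7.13% of all 32817 windows of the table, in 8.82% of 68 windows of cytosolic ribosomal protein genes and in 8.33% of 12 windows of other noncoding snoRNA hosts. A run of at least 6 pyrimidines (C or T, on the strand of the gene) near the start was found in the same 5 windows (62.5%), against 37.5% of all windows, 63.2% of those of ribosomal protein genes and 66.7% of those of other noncoding snoRNA hosts. The longest runs were TTTTTCCTT in Snhg1 and TCCTTTCTC in Snhg12, while Snhg3 and Snhg20 had runs of 5. These letters are a description of the windows, not a mapped start or a bound site.

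All 8 host genes had a higher fitted level in TET1 KO than in WT livers, and none passed the test across the transcriptome (edgeR quasi-likelihood test, Benjamini-Hochberg adjusted p under 0.05 over 14754 genes). The differences ran from 0.11 (Snhg3) to 0.90 (Snhg20) on the log2 scale, with a median of 0.42 beside 0.01 over all tested genes. Among all tested genes 2.02% were called, 0.874% higher and 1.15% lower, and 51.1% had a log2 fold change above 0. An unadjusted p under 0.05 with a higher level was reached by 5 of the 8, Snhg8, Snhg20, Gas5, Snhg12 and Snhg1, against 13.6% of all genes in that direction and 12.7% in the other. With DESeq2, 2 of the 8 were called higher (Snhg8 and Snhg20), where 4.89% of the genes with an adjusted p were called higher and 4.99% lower. In 3 of the 8 (Gas5, Snhg8 and Snhg12) the lowest TET1 KO liver exceeded the highest WT liver, which held for 11.7% of all genes, and the reverse held for 10.8%.

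**Figure D1:**
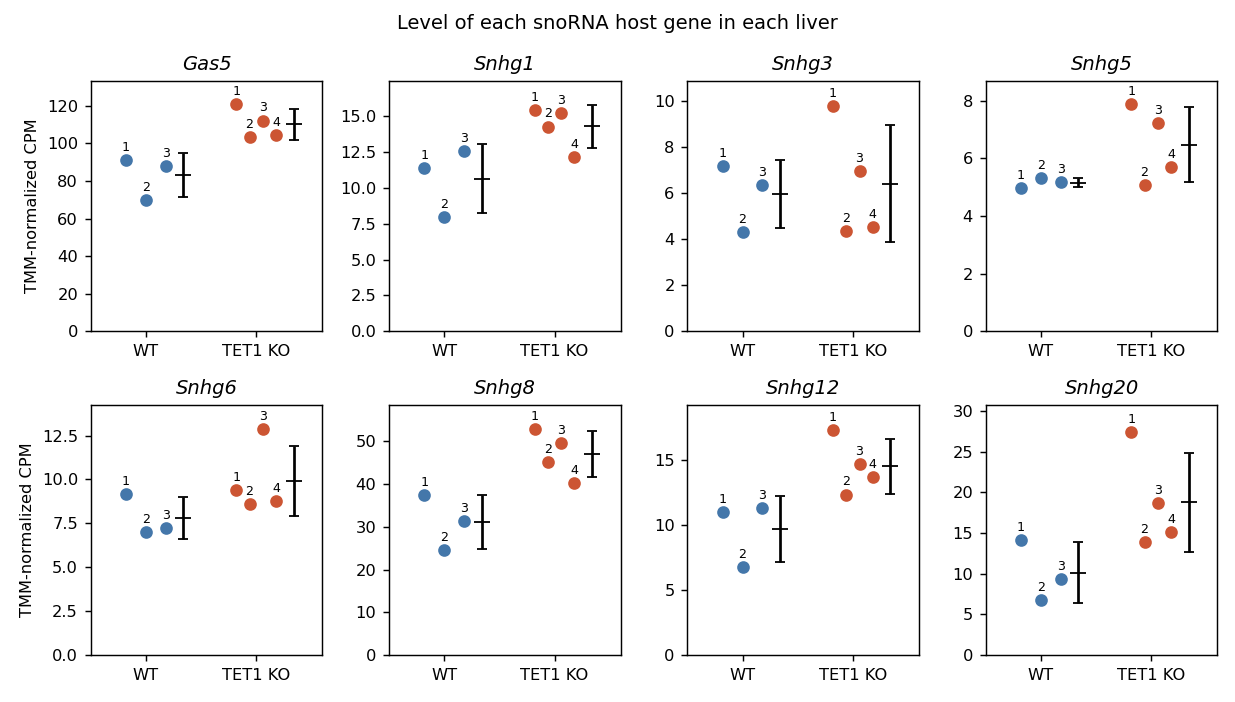
Level of each host gene in each liver, in TMM-normalized CPM (vertical axes start at 0 and differ between panels). Points are single mice with their replicate numbers, and the bars give the mean and SD of the 3 WT and 4 TET1 KO livers; in Gas5, Snhg8 and Snhg12 the genotypes do not overlap.

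Among the hosts of box C/D snoRNAs, Gas5 had the most counts, 1465 to 2249 per library. Its level, in CPM after TMM scaling of the libraries, was 91.1, 69.6 and 88.2 in the WT livers 1 to 3 and 121, 103, 112 and 104 in the TET1 KO livers 1 to 4. The genotypes did not overlap, although WT 1 and TET1 KO 2 lay close to each other. The means were 83.0 ± 11.7 (SD, n = 3) and 110 ± 8.18 (SD, n = 4), a log2 fold change of 0.41 with a 95% confidence interval of 0.11 to 0.71 (edgeR adjusted p = 0.103, DESeq2 adjusted p = 0.0703).

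Snhg1 stood at 11.4, 8.0 and 12.6 CPM in the WT livers and 15.5, 14.3, 15.2 and 12.2 CPM in the TET1 KO livers. TET1 KO 4 lay just under WT 3, and the other three TET1 KO livers lay above all WT livers. The log2 fold change was 0.42 (interval 0.02 to 0.82, edgeR adjusted p = 0.169). Among the snoRNAs of Snhg1 is Snord22, which takes part in ribosomal RNA processing.

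Snhg5 was even among the WT livers at 4.97, 5.31 and 5.19 CPM, a coefficient of variation of 3.30%. The TET1 KO livers had 7.89, 5.07, 7.21 and 5.71 CPM, a coefficient of variation of 20.2%, with TET1 KO 2 inside the WT range. The WT values rest on only 101, 128 and 94 counts, and the difference in spread was not tested. The log2 fold change of 0.33 had an interval of -0.10 to 0.76 that includes 0 (edgeR adjusted p = 0.300). Snhg6 was at 9.15, 7.01 and 7.23 CPM in the WT livers and 9.39, 8.59, 12.9 and 8.77 CPM in the TET1 KO livers. For Snhg6, 2 of the 4 TET1 KO livers stood above the highest WT liver and TET1 KO 3 was the highest of all. Its log2 fold change was 0.35 (interval -0.08 to 0.77, edgeR adjusted p = 0.268). Snhg6 overlaps Mcmdc2, a gene that reached no more than 4 counts in a library.

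Of the hosts of box H/ACA snoRNAs, Snhg8 stood at 37.4, 24.6 and 31.5 CPM in the WT livers and 52.8, 45.2, 49.6 and 40.4 CPM in the TET1 KO livers. The genotypes were separate, and WT 2 was again the lowest liver. The mean went from 31.1 ± 6.42 (SD, n = 3) to 47.0 ± 5.43 CPM (SD, n = 4), a fitted fold of 1.51 and a log2 fold change of 0.59 ± 0.16 (SE, interval 0.23 to 0.96). The edgeR adjusted p was 0.0754. Over the alternatives, which include DESeq2, the adjusted p ran from 0.0270 (DESeq2) to 0.301 (edgeR without WT 2). This DESeq2 call was lost without TET1 KO 1 (adjusted p = 0.0729) and without WT 2 (adjusted p = 0.290).

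Snhg3, the other host of this class, had the smallest difference of the 8, and it was not tested against Snhg8. It was at 7.19, 4.31 and 6.35 CPM in the WT livers and 9.77, 4.37, 6.96 and 4.55 CPM in the TET1 KO livers. The genotypes overlapped, with TET1 KO 2 and TET1 KO 4 near the lowest WT liver, and only TET1 KO 1 lay above the WT range. The log2 fold change of 0.11 had an interval of -0.54 to 0.76 (edgeR adjusted p = 0.834), and it became -0.16 without TET1 KO 1 and -0.09 without WT 2.

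Snhg12, the host with snoRNAs of both classes, was at 11.0, 6.76 and 11.3 CPM in the WT livers and 17.3, 12.3, 14.7 and 13.7 CPM in the TET1 KO livers. The genotypes did not overlap, and the gap between WT 3 and TET1 KO 2 was small. The log2 fold change was 0.59 (interval 0.14 to 1.04, edgeR adjusted p = 0.112, DESeq2 adjusted p = 0.0779). Snhg12 and Snhg3 lie near each other on chromosome 4, in opposite orientations.

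Snhg20, the host without an annotated snoRNA, had the largest difference and a wide spread. The WT livers had 14.1, 6.8 and 9.38 CPM, and the TET1 KO livers had 27.4, 13.9, 18.6 and 15.2 CPM. The lowest TET1 KO liver lay just under the highest WT liver, and the coefficient of variation was 36.8% in WT and 32.5% in TET1 KO livers. The fitted fold was 1.86, a log2 fold change of 0.90 ± 0.28 (SE, interval 0.27 to 1.52). The edgeR adjusted p was 0.0948, with a range of 0.0145 to 0.358 over the alternatives, and the DESeq2 adjusted p was 0.0333. The DESeq2 adjusted p was 0.114 without TET1 KO 1 and 0.338 without WT 2.

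Levels can be set against each other only per exon length, and 4 of the 8 identifiers were found in the annotation at hand, which is of another build (GENCODE M1, NCBIM37). Among these 4 in the WT livers, Gas5 was highest at 22.1 ± 3.10 CPM per kb of exon, followed by Snhg20 at 11.9 ± 4.38, Snhg3 at 6.03 ± 1.50 and Snhg12 at 5.94 ± 1.55 (SD, n = 3 each). Snhg8, which was not matched, had 31.15 CPM in WT over a span of 785 bases, so Gas5 need not be the highest of all 8. The exons of Gas5 from all its transcripts sum to 3760 bases there, nearly the whole gene, which lowers its value. The ranges of Gas5 and Snhg20 did not overlap in WT, nor did those of Snhg20 and Snhg3, while Snhg3 and Snhg12 could not be ordered. In the TET1 KO livers Gas5 (27.4 to 32.1 CPM per kb) and Snhg20 (16.4 to 32.4 CPM per kb) overlapped.

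The 8 host genes tended to be low or high in the same livers within each genotype. WT 2 had the lowest level among the WT livers for 7 of the 8, all but Snhg5, as it had for 38.3% of all tested genes. TET1 KO 1 had the highest level among the TET1 KO livers for 7 of the 8, all but Snhg6, as it had for 32.9% of all tested genes. Both held for 6 of the 8 and for 16.2% of all tested genes. Summed over the 8, the WT livers 1 to 3 had 186, 132 and 172 CPM, and the TET1 KO livers 1 to 4 had 261, 207, 237 and 205 CPM. The same 2 livers, WT 2 and TET1 KO 1, are the ones at the ends of the first principal component.

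**Figure D2:**
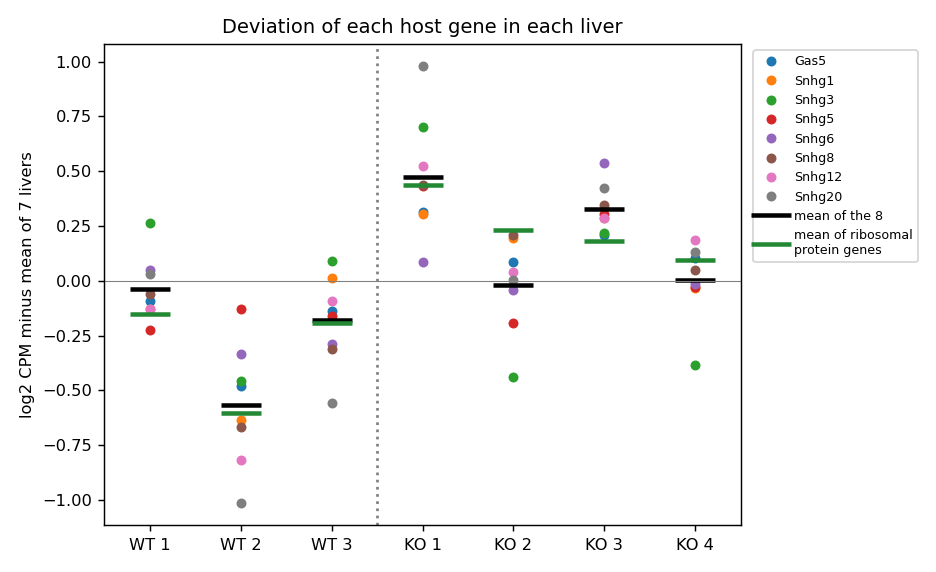
Deviation of each host gene from its mean over the 7 livers, in log2 CPM (vertical axis), for each liver (horizontal axis, WT left and TET1 KO right of the dotted line). Black bars are the mean of the 8 and green bars that of the ribosomal protein genes; the black bar is lowest in WT 2 (-0.57) and highest in TET1 KO 1 (0.47).

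In log2 CPM around the mean of all 7 livers, the mean of the 8 was -0.04, -0.57 and -0.18 in the WT livers and 0.47, -0.02, 0.33 and 0.00 in the TET1 KO livers. The TET1 KO values were all higher than the WT values, though those of TET1 KO 2 and TET1 KO 4 lay close to WT 1. Snhg20 had the widest swing, from -1.01 in WT 2 to 0.98 in TET1 KO 1. The genes whose pattern was most like the mean of the 8 were Kmt2d, a histone methyltransferase (root mean square difference of 0.03 log2 units over the 7 livers), Safb2 (0.04), Dxo, an RNA decapping enzyme (0.05), Tcirg1, a subunit of the vacuolar proton pump (0.05), and Taok2, a protein kinase (0.05). The median difference over the 14746 other tested genes was 0.41. For the mean of the cytosolic ribosomal protein genes it was 0.12, with the largest departure in TET1 KO 2 (0.23 for ribosomal protein genes, -0.02 for the hosts). That value is for a mean over 79 genes and cannot be set beside those of single genes, since averaging lowers it.

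**Figure D3:**
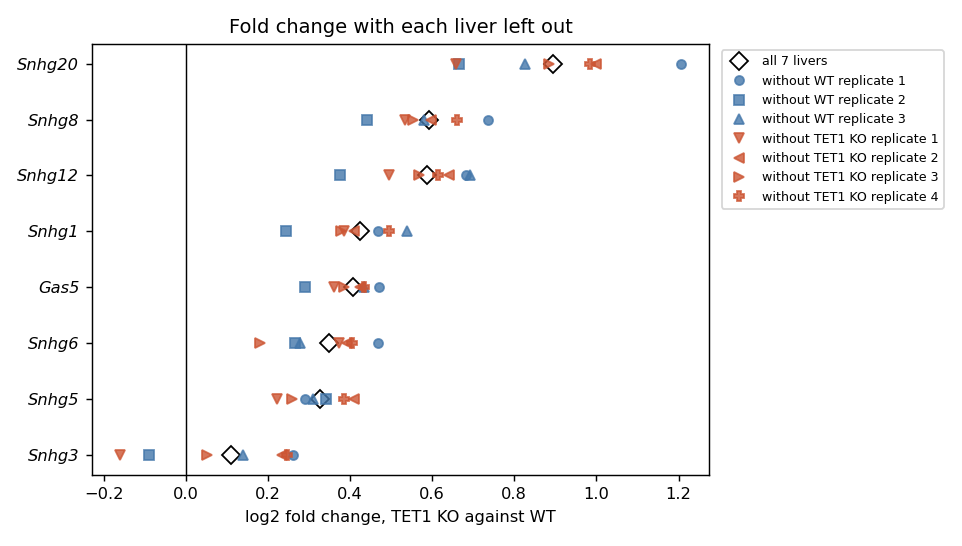
Fitted log2 fold change of each host gene, TET1 KO against WT (horizontal axis), with all 7 livers (open diamonds) and with each liver left out (filled symbols, blue for WT and red for TET1 KO). Leaving out WT 2 gives the lowest value for Gas5, Snhg1, Snhg8 and Snhg12, and only Snhg3 crosses 0.

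With each liver left out in turn, 7 of the 8 kept a positive log2 fold change every time. The median over the 8 was lowest without WT 2 (0.32) and highest without WT 3 (0.49). Without WT 2, 2 of the 8 still had an unadjusted edgeR p under 0.05, against 4 or 5 when another liver was left out. Snhg8 alone passed the adjusted threshold in such a fit, without TET1 KO 4 (adjusted p = 0.0499), where 427 of all tested genes were called higher against 129 with all 7 livers. The log2 fold change of Snhg20 went from 0.66 without TET1 KO 1 to 1.21 without WT 1.

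**Figure D4:**
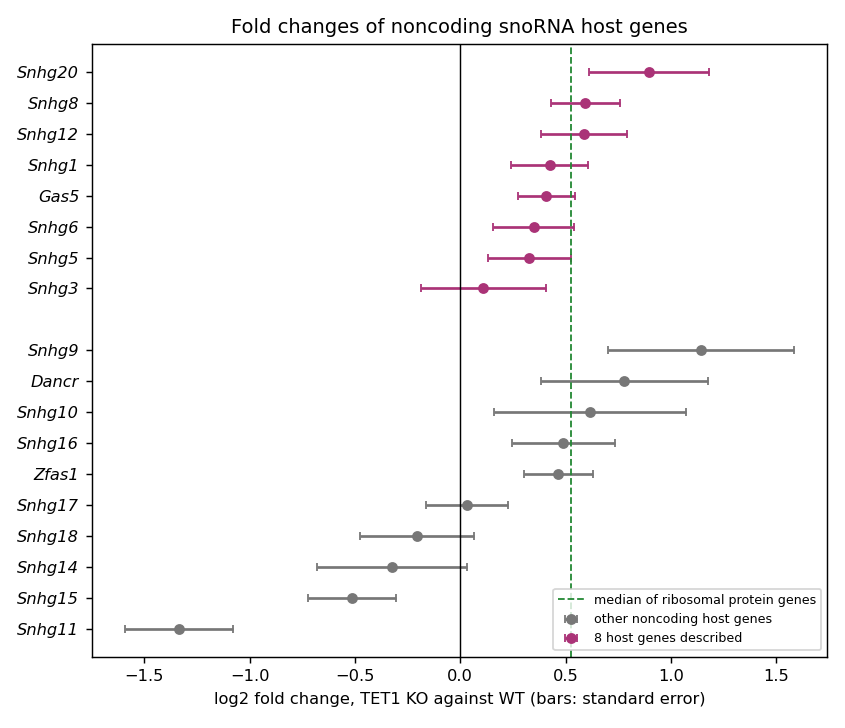
Log2 fold changes, TET1 KO against WT, of the 8 host genes and of 10 other noncoding snoRNA hosts, with standard errors from the fit over 3 WT and 4 TET1 KO livers. The dashed line is the median of 79 cytosolic ribosomal protein genes (0.53); the 8 lie between 0.11 and 0.90 and the others between -1.33 (Snhg11) and 1.14 (Snhg9).

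Other noncoding snoRNA hosts did not all share this direction. Of 12 listed, 10 were matched by symbol and tested. Beside 51.1% of all tested genes, 6 of these 10 had a positive log2 fold change (median 0.25). The median was -0.09 over the genes among them with at least 10 counts in every library, so its direction depends on the low-count genes, and it was 0.11 without WT 2 and 0.10 without TET1 KO 3. One was called lower and none higher, beside 1.15% of all genes called lower. Snhg11 fell by 1.33 on the log2 scale, from 12.4 ± 4.15 (SD, n = 3) to 4.88 ± 1.09 CPM (SD, n = 4), with an edgeR adjusted p of 0.0282, and it was not called in 4 of the 7 fits that left out 1 liver (without WT 1, WT 3, TET1 KO 2 or TET1 KO 3). Outside the rule for naming, Zfas1 had a log2 fold change of 0.47 (edgeR adjusted p = 0.113) and Snhg15 one of -0.51 (edgeR adjusted p = 0.154), both chosen after their values were seen.

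Protein-coding hosts carry snoRNAs in their introns, and many of them encode proteins of translation and ribosome assembly. Of 31 tested, 24 had a positive log2 fold change (median 0.34), against 51.1% of all tested genes. An unadjusted edgeR p under 0.05 in that direction was reached by 12, against 13.6% of all genes, and by none in the other. By edgeR 1 was called higher and by DESeq2 8, against 0.874% of all genes and 4.89% of those with a DESeq2 adjusted p. With edgeR the list held 1 called gene without WT 1, 6 without TET1 KO 4 and none in the other 5 fits that left out 1 liver. The 18 coding hosts that encode ribosomal proteins had a median of 0.50, and the 13 that do not had a median of 0.20.

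Among all 79 cytosolic ribosomal protein genes, 73 had a positive log2 fold change (median 0.53), and 57 had TET1 KO livers that were all higher than the WT livers. These held for 51.1% and 11.7% of all tested genes. Over all genes, edgeR called 0.874% higher, and DESeq2 called 4.89% of those with an adjusted p higher. Of the 79 ribosomal protein genes, 5 were called higher and none lower by edgeR, against 37 higher by DESeq2. Among the 5 were Rpl18 (log2 fold change 0.78, edgeR adjusted p = 0.0367) and Rpl27a (0.95, adjusted p = 0.0390). None was called without WT 2, WT 3, TET1 KO 1, TET1 KO 2 or TET1 KO 3, while 3 were called without WT 1 and 28 without TET1 KO 4. Over all tested genes, the number called higher in these fits was 16 without WT 2, 68 without WT 3, 82 without TET1 KO 1, 45 without TET1 KO 2, 31 without TET1 KO 3, 125 without WT 1 and 427 without TET1 KO 4. Ribosomal protein genes have many processed pseudogenes, and how reads matching both were counted is not given in the sources used here, so single values are uncertain.

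For the proteins that bind snoRNAs, the medians lay nearer to that of all genes. The 4 core proteins of box C/D particles had a median log2 fold change of 0.02, from Fbl, the methyltransferase fibrillarin (-0.36, adjusted p = 0.281), to Nop56 (0.41, adjusted p = 0.320). The 4 core proteins of box H/ACA particles had a median of -0.02, with Dkc1, the pseudouridine synthase dyskerin, at 0.41 (adjusted p = 0.182) and Gar1 at -0.46 (adjusted p = 0.290). Of 10 assembly factors, 4 had a positive value (median -0.19), and the smallest p values belonged to Ruvbl2, an ATPase of the assembly complex (0.42, adjusted p = 0.105), and Znhit3 (-0.39, adjusted p = 0.250). No gene of these 3 lists was called by edgeR or DESeq2, while 2 (Dkc1 and Ruvbl2) had an unadjusted edgeR p under 0.05. Over all tested genes such a p was reached by 13.6% with a higher and 12.7% with a lower level.

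Nonsense-mediated decay removes the spliced RNA of many hosts. None of its 10 factors was called by edgeR, 8 had a positive log2 fold change (median 0.16), and 4 had an unadjusted edgeR p under 0.05. Over all tested genes, 51.1% had a positive value, and such a p was reached by 13.6% with a higher and 12.7% with a lower level. Without TET1 KO 4, edgeR called 1 of the 10 factors higher. Upf3b, which links the decay machinery to exon junctions, was at 26.3 ± 4.93 CPM in WT (SD, n = 3) and 44.8 ± 10.9 CPM in TET1 KO livers (SD, n = 4), a log2 fold change of 0.77 (edgeR adjusted p = 0.0692, DESeq2 adjusted p = 0.0151). Smg8, a subunit of the complex that regulates the decay kinase, had the opposite sign at -0.75 (edgeR adjusted p = 0.0795, DESeq2 adjusted p = 0.0357).

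The snoRNAs that could be matched had almost no counts. Of the 26 annotated inside the hosts, 10 were matched by symbol, 4 of these had 0 counts in all 7 libraries, and the highest count of any was 14 (Snora73b). The others had no match and were not assessed. How reads shared by a snoRNA and its host were counted is not given, so low counts do not show absence from the libraries. Over 150 snoRNA and small Cajal body RNA genes found by symbol, the summed counts were 58 to 131 per library and 108 were at 0 throughout. The spliced hosts and the snoRNAs are separate products, so these data give the level of the host RNA and not that of the snoRNAs.

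Coding genes beside the hosts were compared to see whether the differences reached past each host. Of 19 nearest or overlapping coding genes, 13 were tested, 4 had a positive log2 fold change, and the median was -0.07. None was called, none had an unadjusted edgeR p under 0.05 and none was called by DESeq2. Over all tested genes, an unadjusted edgeR p under 0.05 was reached by 13.6% with a higher and 12.7% with a lower level. Slc3a2, an amino acid transporter subunit whose gene lies 117 bases from that of Snhg1, was at -0.03 ± 0.13 (SE, adjusted p = 0.901). Trnau1ap, 738 bases from Snhg12, was at -0.11 (adjusted p = 0.644), and Rcc1, 6182 bases from Snhg3, was at -0.43 (adjusted p = 0.238). Gas5 overlaps Zbtb37 (0.21, adjusted p = 0.475), and the strand setting of the counting was not given in the sources used here, so reads in the overlap could not be assigned with certainty. Prss12, 949 bases from Snhg8, reached no more than 9 counts in a library and was not tested. The highest values were those of Wdr74, 9468 bases from Snhg1 (0.42, adjusted p = 0.261), and Zfp949, 25122 bases from Snhg5 (0.33, adjusted p = 0.264), which lay close to those of their hosts (0.42 and 0.33), and the genotypes did not overlap in Zfp949. A difference between host and neighbour was not itself tested.

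**Figure D5:**
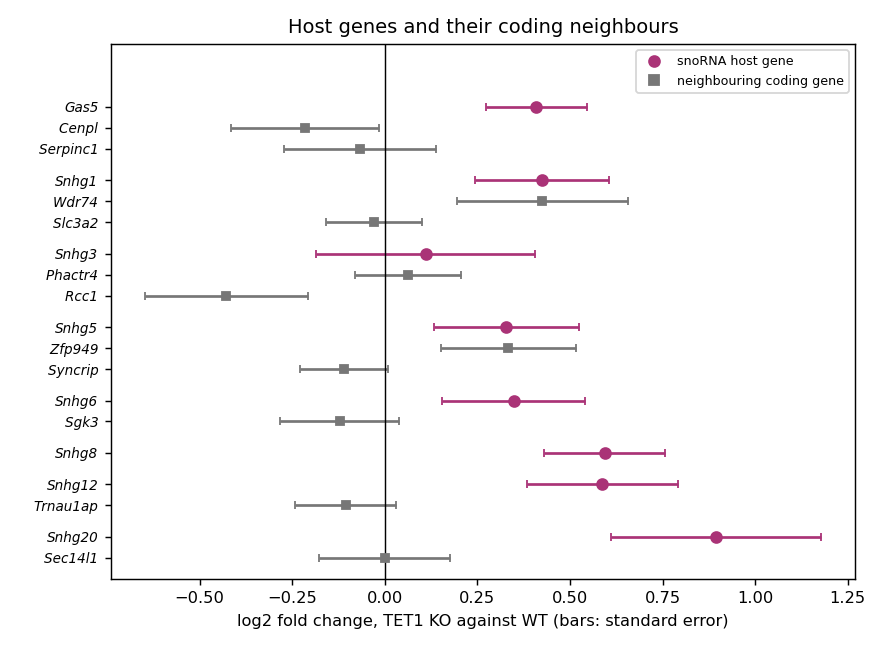
Log2 fold change with standard error, TET1 KO against WT (horizontal axis), of each host gene (circles) and of its tested neighbouring coding genes that do not overlap it (squares below it). These neighbours lie between -0.43 (Rcc1) and 0.42 (Wdr74).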

How the data were processed

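Liver RNA of 3 WT and 4 TET1 KO mice was measured by RNA-seq. The authors deposited 1 table of raw counts per mouse, not normalized, and the submitters' processing notes name Trimmomatic 0.36, GSNAP, featureCounts 1.5.3 and GRCm38, with no counting settings. The library kit keeps strand, after poly(A) selection or removal of ribosomal RNA (both are described). Groups came from the labels. Of 51431 entries per table, 5 repeats were left out, and genes were joined by identifier because 26 symbols in 1 table were changed to dates. No libraries of a genotype agreed within sampling noise.

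The host genes and all gene lists were chosen with earlier results of these data known. Counts were fitted in R 4.3.3 with edgeR 4.0.16 (filterByExpr, TMM, quasi-likelihood F test, two-sided, genotype only), and DESeq2 1.42.0 was an alternative. The standard error of a fold change was its size divided by the square root of F. Log2 CPM used a prior count of 2. The fit was tested on simulated data. All host genes were named, and from every other list up to 3 called genes per direction or, where none was called, the 2 with the smallest p. The neighbours and the 5 genes nearest in pattern were also named, and some of the genes this rule selects are not reported here. Promoter windows and coordinates are from RefSeq (GRCm38.p6). Figures were drawn with matplotlib 3.10.9.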

Additional observations from a re-analysis of the deposited data

How the results depend on the processing

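The direction of 7 of the 8 host genes held under all 14 alternatives. Across the fits with 1 liver left out Snhg3 ran from -0.16 to 0.2601. It changed sign without WT 2 (-0.0885) and without TET1 KO 1 (-0.16), and likewise with DESeq2 in those fits (-0.0928 and -0.1708), which were chosen after seeing the data. The number of host genes called higher was 2 with DESeq2, 2 with the replicate number as a block, and 0 to 1 with 1 liver left out, while none was called lower in any fit. Both calls with DESeq2 were lost without WT 2 and without TET1 KO 1 (0 called in each).

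The replicate block used mice 1 to 3 of each genotype and so left out TET1 KO 4. Correlations between same-numbered livers were 0.21, -0.12 and -0.10, and those between livers with different numbers ran from -0.30 to 0.31. With so few livers, this check could not tell whether the numbers pair the mice. The block called Snhg8 and Snhg20 and gave a median of 0.48. It also called 33 ribosomal protein genes and 6 coding hosts higher. Of the decay factors it called 1 higher and 1 lower, and of the polymerase I list 1 lower. Leaving out TET1 KO 4 with no block already called 28 ribosomal protein genes, 6 coding hosts and 1 decay factor higher. That fit also called 1 polymerase I factor lower and Snhg8 higher, but not Snhg20. With all livers and no block, 5 ribosomal protein genes and 1 coding host were called higher. Scaling by library size alone gave a median of 0.32, with the median of all genes at -0.08.

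Over all genes, 129 were called higher and 169 lower. DESeq2 called 693 and 707, the replicate block 696 and 687, no filter 245 and 347, and library size alone 107 and 312. Leaving out 1 liver gave 16 to 427 higher and 22 to 464 lower, the fewest without WT 2 and the most without TET1 KO 4. The cause was not tested. With 3 and 4 livers, intervals of single hosts stay wide.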

Other observations

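Factors of RNA polymerase I transcription and of the nucleolus, where snoRNAs act, formed a list of 22 tested genes. None was called by edgeR or DESeq2, 14 had a positive log2 fold change (median 0.02), and 5 had an unadjusted edgeR p under 0.05. Over all tested genes, 51.1% had a positive value, and such a p was reached by 13.6% with a higher and 12.7% with a lower level. Without TET1 KO 4, edgeR called 1 of the 22 factors lower. Taf1c, a subunit of the polymerase I selectivity factor, was at 1.94 ± 0.71 CPM in WT (SD, n = 3) and 3.42 ± 0.46 CPM in TET1 KO livers (SD, n = 4), a log2 fold change of 0.84 (edgeR adjusted p = 0.105). Dcaf13, a ribosome assembly factor, was at 17.6 ± 3.78 CPM in WT (SD, n = 3) and 11.3 ± 3.27 CPM in TET1 KO livers (SD, n = 4), a log2 fold change of -0.63 (edgeR adjusted p = 0.119).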
